A study of Mus musculus with 12 samples.

Results

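Of the 43430 genes in the deposited expression table, 55 make up a module of mitosis, kinetochore and spindle genes. They were chosen by symbol from a fixed list of names, with earlier results of these data known. They are 3 mitotic kinases, 6 genes of the spindle checkpoint and of the ubiquitin ligase APC/C, 4 subunits of the chromosomal passenger complex and 4 genes of sister chromatid cohesion and its release. The others are 9 kinesin motors, 8 centromere proteins, 4 subunits of the NDC80 complex, 3 spindle assembly proteins, 5 cytokinesis genes, 7 condensin and chromosome structure genes and 2 CKS proteins. All 55 were found in the table. They were measured by sequencing of polyadenylated RNA from alveolar macrophages, phagocytes that live in the air sacs, in a mouse lung transplant model. There were 12 libraries in 3 groups of 4. The naive lungs carry no transplant label, and the other groups were sampled 2 h and 24 h after reperfusion, when blood flow to the transplanted lung was restored. All 3 groups share the genotype Cx3cr1gfp/+B6, male sex, an age of 14 weeks, lung as tissue and alveolar macrophage as cell type. The genotype carries a green fluorescent reporter in 1 copy of Cx3cr1, a gene of monocytes and of some macrophages, and the naive group carries it too. The titles of the transplant libraries hold the word Allo without further explanation. Separate mice for each library are not stated in the labels. The p-values therefore reflect only how libraries of a group differ, which may be technical.

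Mitosis separates duplicated chromosomes into 2 daughter cells. Condensins and topoisomerase II compact and untangle the chromosomes, kinetochores built on CENP-A chromatin attach them to spindle microtubules, and the checkpoint holds back the APC/C until every kinetochore is attached. Separase then cuts cohesin and the cytokinesis machinery divides the cell. Most of these genes are transcribed mainly in the G2 and M phases of the cell cycle, and in vertebrates the CHR element and the CCAAT box in their promoters are known sites of the DREAM, B-MYB and NF-Y factors. Alveolar macrophages are long-lived cells that can renew themselves by division in the lung.

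Promoters of members were examined for these letters, a feature the choice of members did not use. RefSeq promoters on GRCm38.p6, the assembly of mm10, which run from 250 bases before to 50 bases after the start, were available for 47 of the 55 genes, 52 promoters in all. The core letters of the CHR element, TTTGAA on either strand (TTCAAA when read on the other strand), stood in 35 of the 52 member promoters (67.3%), against 17.9% of all 32851 RefSeq promoters and 12.2% of the 10125 promoters of genes tested here. The CCAAT box, CCAAT on either strand (ATTGG on the other), stood in 38 of 52 (73.1%), against 37.4% of all promoters and 37.9% of those of genes tested. Both stood in 28 of 52 (53.8%), against 6.95% of all promoters and 5.09% of those of genes tested. This share is not particular to the members. Among lists of related genes, both stood in 61.9% of 21 promoters of other spindle and cytokinesis genes. For other checkpoint genes the share was 50% of 10, for mitotic entry 40% of 5 and for other kinetochore genes 16.7% of 24. It was 11.1% for cohesin, 10.7% for DNA replication, and 0% for the APC/C core and condensin II. The related letters TTTAAA were found in 15.4% of member promoters, 13.2% of all promoters and 8.83% of those of genes tested. The E2F-like letters TTTGGCG or TTTCGCG were found in 9.62% of member promoters, 35.7% of the promoters of a list of DNA replication genes, 2.37% of all promoters and 4.21% of those of genes tested. A match describes the letters in this window and not a bound site, and no motif searched is contained in another. The following stretches of 100 bases before the RefSeq start are shown because they hold TTTGAA downstream of a CCAAT box. Both motifs, in either order, stood within this stretch in 10 of the 47 genes (19.2% of member promoters, against 1.06% of all promoters). Capitals mark TTTGAA and CCAAT on either strand.
Top2a, chr11:99024190-99024289, minus strand: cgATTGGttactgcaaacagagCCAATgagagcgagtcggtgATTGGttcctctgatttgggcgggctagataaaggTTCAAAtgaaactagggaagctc
Kif11, chr19:37376282-37376381, plus strand: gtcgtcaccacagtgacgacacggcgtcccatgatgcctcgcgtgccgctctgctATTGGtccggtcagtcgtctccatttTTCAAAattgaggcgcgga
Espl1, chr15:102296193-102296292, plus strand: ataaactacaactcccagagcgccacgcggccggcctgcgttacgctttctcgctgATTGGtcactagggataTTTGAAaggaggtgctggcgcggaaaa
Cdc20, chr4:118437344-118437443, minus strand: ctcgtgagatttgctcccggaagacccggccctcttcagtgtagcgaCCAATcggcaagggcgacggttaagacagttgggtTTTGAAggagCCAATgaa
Prc1, chr7:80294376-80294475, plus strand: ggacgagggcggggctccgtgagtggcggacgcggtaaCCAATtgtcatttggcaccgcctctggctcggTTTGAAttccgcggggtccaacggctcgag
The next 3 stretches are shown for contrast. The one of Cks2 holds CCAAT boxes and no TTTGAA, and those of Mad2l1 and Nuf2 hold neither, there or in the rest of their promoter windows. Windows follow the RefSeq start, which can differ from the annotated gene start. The Mad2l1 window (chr6:66534971-66535270) ends before its annotated gene start at 66535390, so the bases just before that start were not searched.
Cks2, chr13:51645132-51645231, plus strand: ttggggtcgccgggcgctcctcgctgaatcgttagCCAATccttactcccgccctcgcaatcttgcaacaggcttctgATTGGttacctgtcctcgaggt
Mad2l1, chr6:66535121-66535220, plus strand: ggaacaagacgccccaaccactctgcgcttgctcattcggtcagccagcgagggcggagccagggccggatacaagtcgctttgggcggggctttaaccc
Nuf2, chr1:169531465-169531564, minus strand: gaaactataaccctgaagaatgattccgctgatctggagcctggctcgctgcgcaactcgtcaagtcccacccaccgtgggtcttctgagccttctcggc
Against naive, the 32 member genes with TTTGAA in a promoter had a median log2 fold change of 1.70 at 24 h and -0.40 at 2 h, and the 15 without it had 1.65 at 24 h and -0.36 at 2 h. The 7 genes with neither motif were Birc5, Kif18a, Mad2l1, Ncaph, Nuf2, Nusap1 and Pttg1. Their median was 1.81 at 24 h and -0.28 at 2 h. At 24 h they ranged from -0.41 to 2.07 and included the member that fell, Pttg1. The Pttg1 window (chr11:43425932-43426231, minus strand) lies wholly downstream of its annotated gene start at 43426251. For Pttg1 and Mad2l1 the absence of both motifs therefore holds only for the windows searched.

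The library totals recovered from the values were 6112586 to 8796071 reads in naive libraries, 7242824 to 10347265 at 2 h and 9129420 to 11997945 at 24 h, and the members had between 6 and 12077 reads in a library. All 55 members were among the 11419 genes tested, those with at least 1 RPKM (reads per kilobase of transcript per 1000000 reads) in at least 4 libraries. Of them, 5 passed only through the 24 h libraries (Ttk, Kif18a, Cenpi, Cenpw and Ect2), and 50 had at least 1 RPKM in every naive library. The macrophage label was checked with 13 marker genes such as Chil3, Fabp4 and Siglecf, all of which were detected. At 24 h against naive 8 of the 13 were lower and 2 higher, and at 2 h 5 were lower. Their summed levels, most of which came from Chil3 (means of 7780, 4970 and 7802 RPKM in naive, 2 h and 24 h libraries), were 11859 to 12178 RPKM in naive libraries, 7900 to 9229 RPKM at 2 h and 9491 to 11481 RPKM at 24 h. Of 10 lymphocyte markers, 3 were tested and all 3 were lower in both transplant groups than in naive. The 10 summed to 9.12 to 13.8 RPKM in naive libraries, 2.67 to 7.04 RPKM at 2 h and 1.46 to 3.07 RPKM at 24 h. Of 8 neutrophil markers, 4 were tested, 1 of them higher and 1 lower at 24 h than in naive. The 8 summed to 26.2 to 34.9 RPKM in naive libraries, 28.3 to 40.4 RPKM at 2 h and 41.7 to 48.0 RPKM at 24 h. The most abundant of them, S100a8, averaged 10.2, 11 and 29.8 RPKM in that order. Of 7 monocyte markers, 2 were tested, both lower at 2 h than in naive and 1 of them lower at 24 h. The 7 summed to 25 to 27.0 RPKM, 11.9 to 18.5 RPKM and 21.3 to 30.4 RPKM in the same order of groups. Most of each sum came from Fn1, with means of 23.0, 15.1 and 24.4 RPKM. Of 7 interstitial macrophage markers, 4 were tested, and all 4 were lower at 24 h than in naive, while 1 was higher and 3 were lower at 2 h. Their sums were 319 to 364 RPKM in naive libraries, 361 to 453 RPKM at 2 h and 259 to 301 RPKM at 24 h. Mrc1 alone, averaging 327, 406 and 282 RPKM in that order, made up most of each, so these sums mainly follow Mrc1. Of 6 epithelial markers, 4 were tested and 1 was lower at 24 h than in naive. Their sums were 66.0 to 70.8 RPKM in naive libraries, 58.9 to 76.7 RPKM at 2 h and 32.9 to 40.1 RPKM at 24 h, and Epcam averaged 42.5, 38.2 and 12.2 RPKM in that order. The dendritic cell, endothelial and stromal, and red cell and platelet lists summed to at most 7.33, 2.86 and 4.35 RPKM in any library. No marker of these lists was at 0 in every library, and the part of other cells in the results on the members was not tested.

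At 24 h the module was higher almost as a whole. Against naive, 54 of the 55 members rose and 1, Pttg1, fell (limma on log2(RPKM + 1), adjusted p under 0.05 over all genes tested), where 25.3% of all genes tested rose and 20.6% fell. With only genes of at least 1 RPKM in every naive library fitted, which leaves out the 5 members that passed through the 24 h libraries alone, 49 of 50 members rose and 1 fell at 24 h, and 38 of 50 fell at 2 h. The groups did not overlap for any of the 55 members, 54 of them with 24 h above naive; without overlap, 25.8% of all genes tested were higher and 22.0% lower. The median log2 fold change of members was 1.70, against 0.00 over all genes tested, and the median ratio of mean RPKM was 4.20, with a range of 0.677 to 6.46. Of the members, 53 lay above the 95th percentile of all genes tested, which was a log2 fold change of 0.82. These are relative levels in bulk RNA: a larger share of dividing cells and more of these transcripts in each cell cannot be told apart.

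At 2 h the module was lower, by a smaller amount. Against naive, 39 of 55 members fell, none rose and 16 did not pass, where 22.0% of all genes tested fell and 14.7% rose. For 32 members every 2 h library lay below every naive library, against 20.5% of all genes tested. The median log2 fold change of members was -0.39, against -0.04 over all genes tested, and the median ratio of mean RPKM was 0.690, with a range of 0.444 to 1.04. Of 55 log2 fold changes, 54 were negative. Against 2 h, 54 members rose at 24 h and none fell, where 30.9% of all genes tested rose and 21.5% fell. The same 54 members had every 24 h library above every 2 h library, where 27.5% of all genes tested were higher and 18.2% lower without overlap. The median log2 fold change was 2.10 (0.05 over all genes tested) and the median ratio 6.39. In all, 38 members were lower at 2 h and higher at 24 h than in naive, 16 did not pass at 2 h and were higher at 24 h, and Pttg1 was lower at both times. Both transplant groups are set against the same 4 naive libraries.

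**Figure D1:**
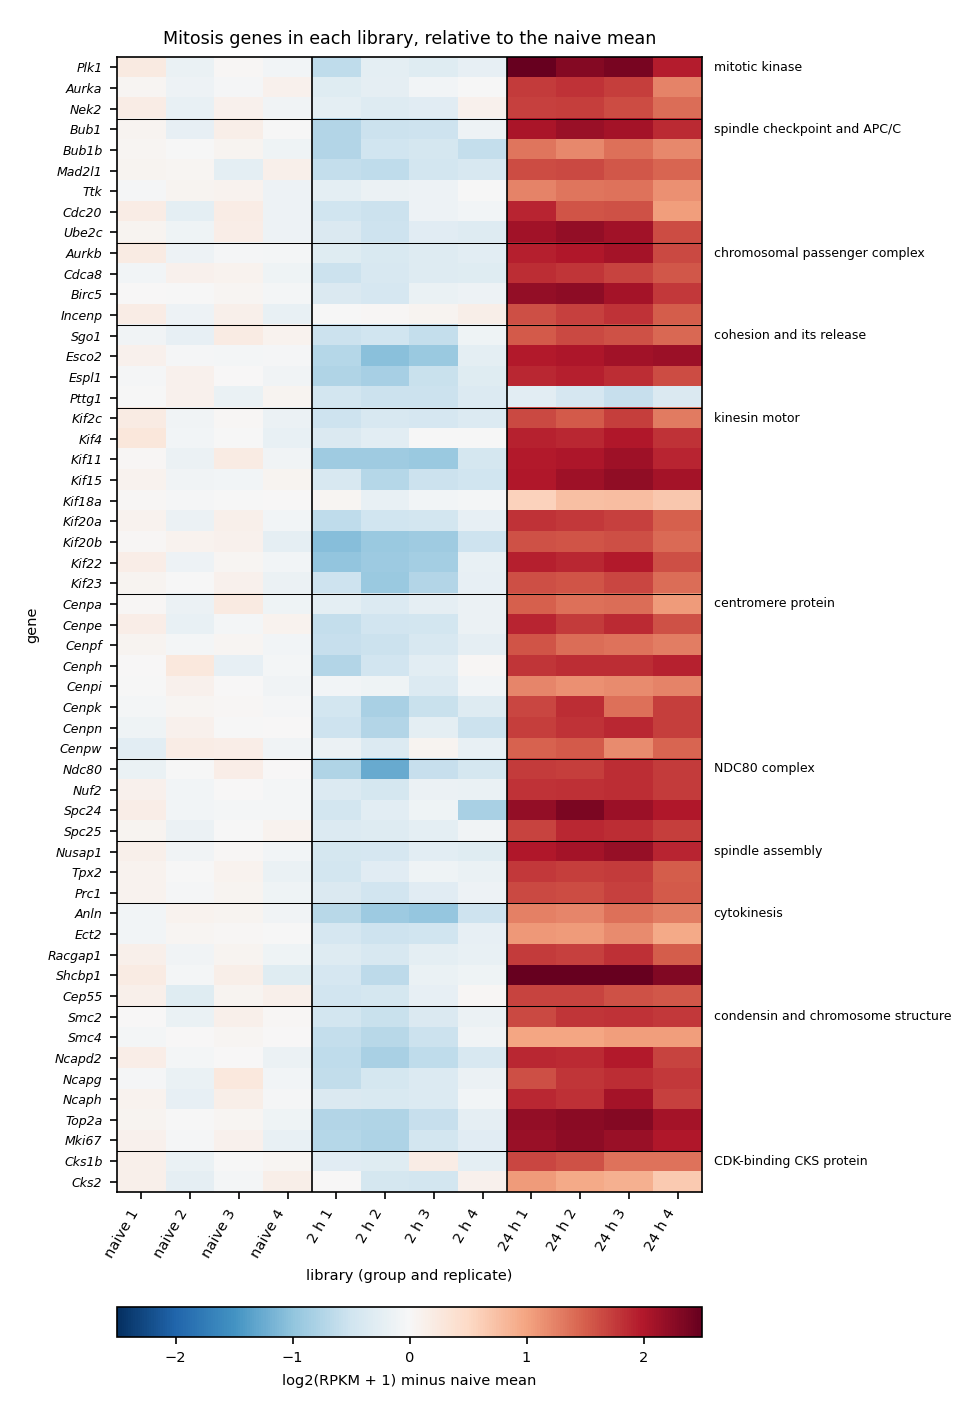
Level of each of the 55 genes (rows, grouped by role) in each of the 12 libraries (columns, naive, 2 h, 24 h) as log2(RPKM + 1) minus the naive mean of that gene; red is higher and blue lower. The 24 h columns are red in every row except that of Pttg1, and the 2 h columns are mostly pale blue, with replicate 4 the highest of its group for 44 of 55 genes.

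**Figure D2:**
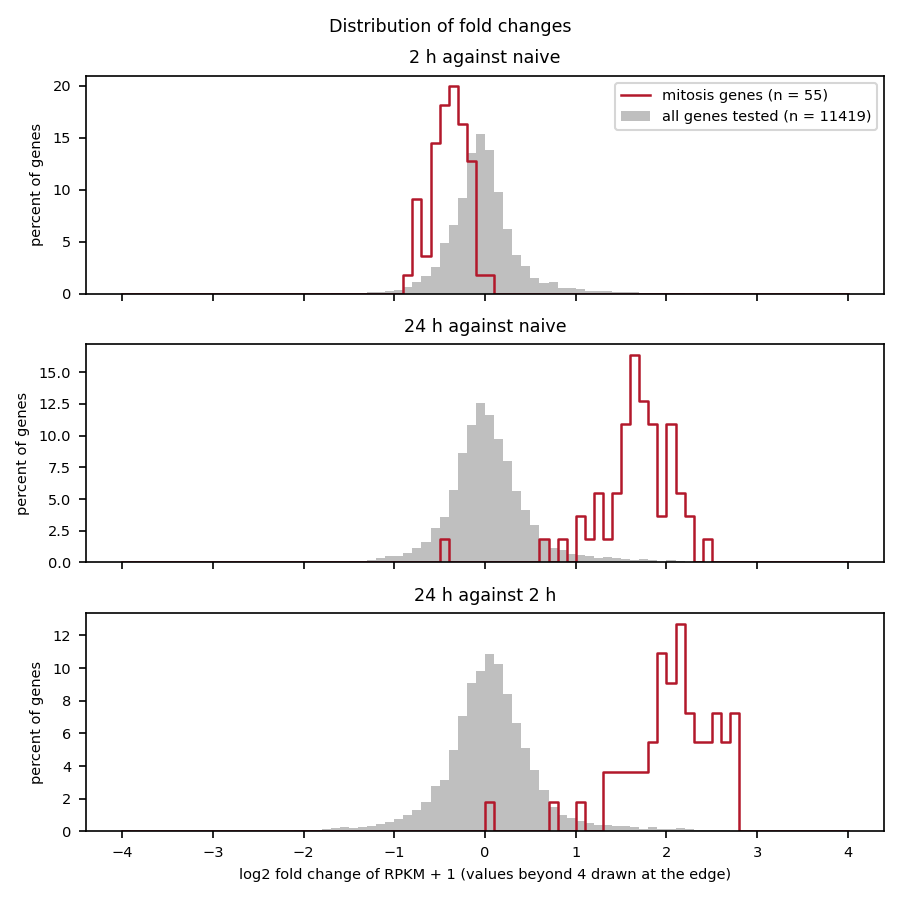
Distribution of log2 fold changes of RPKM + 1 in the 3 comparisons, as percent of genes per bin, for all 11419 genes tested (grey) and the 55 mitosis genes (red line). At 2 h the members lie left of the bulk of genes, with a median of -0.39, and in both 24 h comparisons they lie to its right, with medians of 1.70 and 2.10.

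Read sums over the module gave the same order of groups. Per 1000000 reads, members had 1907, 1734, 1904 and 1692 reads in naive libraries, 1125, 1079, 1237 and 1491 reads at 2 h and 6985, 7039, 7185 and 6251 reads at 24 h. The 3 groups did not overlap. Libraries of a group differed from one another across many members at the same time: 2 h replicate 4 was the highest of its group for 44 of 55 members and 24 h replicate 4 the lowest of its group for 39. Without 2 h replicate 4, 42 members fell at 2 h. The count of all genes tested that fell at 2 h also moved, from 2073 to 2758, as each library was left out in turn. The median coefficient of variation of members was 11.3% in naive libraries, 19.9% at 2 h and 8.58% at 24 h.

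The mitotic kinases were all 3 higher at 24 h. Plk1 (chr7:122159439-122169873, plus strand), which drives centrosome maturation and mitotic exit, had 7.79, 5.67, 6.67 and 6.16 RPKM in naive libraries. At 2 h Plk1 had 3.88, 5.35, 5.12 and 5.52 RPKM, and at 24 h 41.1, 35.9, 38.0 and 28.5 RPKM. Every 24 h library lay far above the other groups, and every 2 h library lay just below the naive ones. Its mean level at 24 h was 5.46 times that in naive (log2 fold change 2.28, SE 0.13, adjusted p = 8.43e-08), and at 2 h 0.756 times (log2 fold change -0.34, SE 0.13, adjusted p = 0.049956). The 2 h call lies next to the threshold and was kept under 8 of 23 other settings. A processed pseudogene, Plk-ps1, is 93.5% identical over 1813 bases and had mean levels of 2.25, 2.46 and 1.80 RPKM in naive, 2 h and 24 h libraries. Reads that match both loci make the level of Plk1 uncertain to that extent. Nek2 (chr1:191821444-191833050, plus strand), a kinase of centrosome separation, had 2.03, 1.34, 1.85 and 1.49 RPKM in naive libraries. At 2 h Nek2 had 1.26, 1.13, 1.18 and 1.85 RPKM, and at 24 h 7.65, 7.78, 7.20 and 5.99 RPKM. It had the smallest rise of the kinases, 4.26-fold (log2 fold change 1.61, SE 0.12, adjusted p = 5.99e-07), with no overlap between 24 h and naive, and its 2 h values overlapped the naive ones. Aurka, the kinase of spindle poles, averaged 1.33 ± 0.164 RPKM in naive libraries, 1.11 ± 0.197 RPKM at 2 h and 6.31 ± 1.23 RPKM at 24 h (SD, n = 4), a 4.73-fold rise at 24 h that passed, while the 2 h difference from naive did not (adjusted p = 0.367).

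In the spindle checkpoint, which delays anaphase, and among the APC/C genes Cdc20 and Ube2c, all 6 members rose at 24 h and 4 fell at 2 h. Bub1 (chr2:127801122-127831865, minus strand), the kinase that recruits checkpoint proteins to kinetochores, had 3.12, 2.40, 3.37 and 2.93 RPKM in naive libraries. At 2 h Bub1 had 1.37, 1.72, 1.75 and 2.59 RPKM, and at 24 h 15.2, 16.5, 15.7 and 13.3 RPKM. It showed the largest log2 fold change of this role at 24 h (log2 fold change 2.03, SE 0.12, adjusted p = 1.46e-07). At 2 h, replicate 4 reached into the naive range while the fall passed (log2 fold change -0.48, SE 0.12, adjusted p = 0.00909). Bub1b (chr2:118598211-118641591, plus strand), which encodes BubR1, an inhibitor of the APC/C, had 17.9, 17.1, 18 and 15.9 RPKM in naive libraries. At 2 h Bub1b had 9.99, 11.9, 12.5 and 11.1 RPKM, and at 24 h 45.3, 40.6, 46.1 and 40.8 RPKM. All 3 groups were apart from one another, with the lowest level at 2 h. The rise at 24 h over naive was 2.5-fold, among the smaller ones of the module (log2 fold change 1.28, SE 0.07, adjusted p = 9.87e-08). Mad2l1 (chr6:66535390-66547220, plus strand), which encodes Mad2, the checkpoint protein that binds Cdc20, had 4.25, 4.21, 3.23 and 4.48 RPKM in naive libraries. At 2 h Mad2l1 had 2.31, 2.22, 2.63 and 2.81 RPKM, and at 24 h 14.6, 14.7, 13.8 and 12.8 RPKM. Here too the groups did not overlap, and the level was 3.46 times naive at 24 h and 0.617 times naive at 2 h (adjusted p = 8.22e-08 and 8.54e-04).

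Ttk (chr9:83834689-83872389, plus strand), the checkpoint kinase also called Mps1, was low, with 0.427, 0.517, 0.537 and 0.335 RPKM in naive libraries. At 2 h Ttk had 0.233, 0.306, 0.338 and 0.448 RPKM, and at 24 h 2.44, 2.68, 2.71 and 2.19 RPKM. Its 24 h libraries were all above naive, 5.52-fold on the ratio of means, but the log2 fold change of RPKM + 1 was the smallest of this role (log2 fold change 1.27, SE 0.09, adjusted p = 3.88e-07), since adding 1 understates changes of low values. Cdc20 (chr4:118432901-118437352, minus strand), the activator of the APC/C that the checkpoint restrains, had 6.07, 4.20, 6.01 and 4.71 RPKM in naive libraries. At 2 h Cdc20 had 3.37, 3.28, 4.67 and 4.87 RPKM, and at 24 h 22.2, 17.4, 17.7 and 11.8 RPKM. Its 24 h libraries spread widely, replicate 4 being lowest, yet all lay above naive (log2 fold change 1.53, SE 0.18, adjusted p = 3.04e-05). The 2 h values overlapped the naive ones (log2 fold change -0.31, SE 0.18, adjusted p = 0.191). Ube2c, the ubiquitin-conjugating enzyme of the APC/C, averaged 5.35 ± 0.636 RPKM in naive libraries, 3.89 ± 0.327 RPKM at 2 h and 24.7 ± 4.21 RPKM at 24 h (SD, n = 4), passing at 24 h with a 4.61-fold rise and at 2 h with a level 0.728 times naive. The 2 h call of Ube2c was kept under 17 of 23 other settings.

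The chromosomal passenger complex corrects faulty attachments and later acts at the midzone; all 4 of its subunits rose at 24 h, and Aurkb and Cdca8 fell at 2 h. Aurkb (chr11:69045647-69051664, plus strand), its kinase, had 3.22, 2.38, 2.61 and 2.58 RPKM in naive libraries. At 2 h Aurkb had 1.98, 1.84, 1.94 and 2.05 RPKM, and at 24 h 13.2, 13.7, 14.5 and 10.5 RPKM. The groups were separate in both comparisons with naive (log2 fold change 1.91, SE 0.09, adjusted p = 4.18e-08 at 24 h and log2 fold change -0.32, SE 0.09, adjusted p = 0.0188 at 2 h), the 2 h libraries lying close together. Without naive replicate 1 the 2 h call of Aurkb was lost (adjusted p = 0.0553). Birc5 (chr11:117849251-117855743, plus strand), which encodes survivin, had 4.59, 4.51, 4.71 and 4.39 RPKM in naive libraries. At 2 h Birc5 had 3.32, 3.12, 3.94 and 4.10 RPKM, and at 24 h 24.6, 25.3, 22.5 and 17.8 RPKM. At 24 h it rose 4.95-fold, the largest log2 fold change of the complex (log2 fold change 2.07, SE 0.10, adjusted p = 4.28e-08). At 2 h every library was below naive, yet the test was missed (log2 fold change -0.27, SE 0.10, adjusted p = 0.0571). Incenp (chr19:9872296-9899551, minus strand), the scaffold of the complex, had 21.1, 16.9, 20.4 and 16.1 RPKM in naive libraries. At 2 h Incenp had 18.3, 19, 19.4 and 20.5 RPKM, and at 24 h 58.8, 63.1, 67.5 and 54.8 RPKM. Its naive and 2 h libraries overlapped fully, and its log2 fold change at 2 h was the 1 positive value of the module (log2 fold change 0.06, SE 0.09, adjusted p = 0.652). At 24 h Incenp rose 3.29-fold, the smallest rise of the complex (log2 fold change 1.67, SE 0.09, adjusted p = 7.34e-08). Cdca8, which encodes borealin, averaged 2.14 ± 0.227 RPKM in naive libraries, 1.40 ± 0.176 RPKM at 2 h and 9.29 ± 0.906 RPKM at 24 h (SD, n = 4).

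Of the genes of cohesion and its release, 3 of 4 rose at 24 h and all 4 fell at 2 h. Esco2 (chr14:65819038-65833994, minus strand), the acetyltransferase that establishes cohesion in S phase, had 2.95, 2.58, 2.51 and 2.55 RPKM in naive libraries. At 2 h Esco2 had 1.21, 0.754, 0.908 and 2.06 RPKM, and at 24 h 13.3, 13.8, 14.6 and 15.1 RPKM. Its 2 h libraries spread widely, replicate 4 being highest, and all lay below naive. The ratio of 24 h over 2 h, 11.5, was the largest of the module (log2 fold change 2.80, SE 0.14, adjusted p = 1.81e-08). Against naive, the ratio at 24 h was 5.36 (log2 fold change 2.06, SE 0.14, adjusted p = 3.62e-07). Pttg1 (chr11:43420250-43426251, minus strand), which encodes securin, the inhibitor that holds separase until anaphase, had 3.07, 3.45, 2.66 and 3.32 RPKM in naive libraries. At 2 h Pttg1 had 1.98, 1.82, 1.85 and 2.23 RPKM, and at 24 h 2.44, 2.07, 1.75 and 2.19 RPKM. Both transplant groups lay below every naive library and overlapped each other. The mean level was 0.677 times naive at 24 h (log2 fold change -0.41, SE 0.09, adjusted p = 0.00222) and 0.631 times naive at 2 h (log2 fold change -0.47, SE 0.09, adjusted p = 0.00148). The 24 h and 2 h groups did not pass against each other (log2 fold change 0.07, SE 0.09, adjusted p = 0.546). Espl1, which encodes separase itself, went the other way at 24 h: it averaged 4.15 ± 0.313 RPKM in naive libraries, 2.40 ± 0.581 RPKM at 2 h and 17.3 ± 1.66 RPKM at 24 h (SD, n = 4), 4.17 times naive at 24 h (log2 fold change 1.83, SE 0.11, adjusted p = 1.52e-07). Sgo1, the shugoshin that shields centromeric cohesin, averaged 1.64 ± 0.336 RPKM in naive libraries, 0.959 ± 0.322 RPKM at 2 h and 6.73 ± 0.51 RPKM at 24 h (SD, n = 4), and rose 4.11-fold at 24 h.

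**Figure D3:**
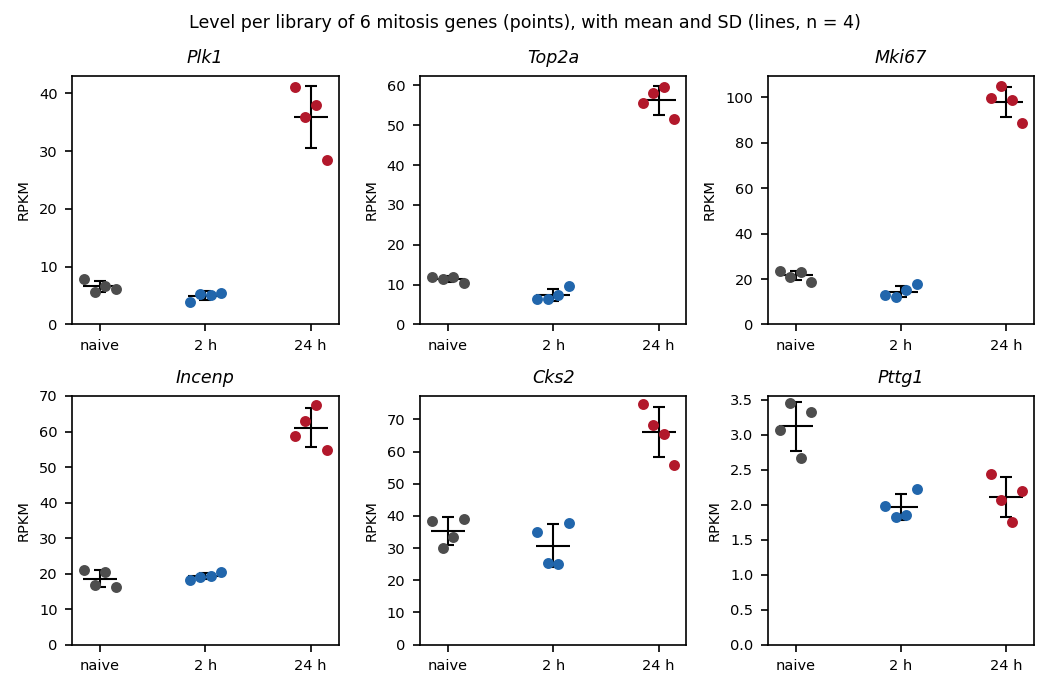
RPKM in each of the 4 libraries of the naive, 2 h and 24 h groups (points) with mean and SD (lines) for Plk1, Top2a, Mki67, Incenp, Cks2 and Pttg1, each on its own scale from 0. Plk1, Top2a and Mki67 lie highest at 24 h and lowest at 2 h, Incenp and Cks2 overlap between naive and 2 h, and Pttg1 lies below naive at both times.

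All 9 kinesin motors, which move along or destabilise microtubules, rose at 24 h, and 7 fell at 2 h. Kif11 (chr19:37376403-37421859, plus strand), the Eg5 motor that pushes spindle poles apart, had 7.93, 6.96, 9.15 and 7.26 RPKM in naive libraries. At 2 h Kif11 had 3.75, 3.77, 3.65 and 5.47 RPKM, and at 24 h 33.8, 34.9, 37.4 and 31.8 RPKM. The groups were apart, 2 h lowest and 24 h highest, with 2 h replicate 4 well above the other 2 h libraries. The level was 4.41 times naive at 24 h (log2 fold change 2.01, SE 0.11, adjusted p = 8.18e-08) and 0.532 times naive at 2 h (log2 fold change -0.78, SE 0.11, adjusted p = 3.23e-04). Kif15 (chr9:122951046-123018733, plus strand), a motor that helps Kif11 keep spindles bipolar, had 4.58, 3.98, 4.00 and 4.52 RPKM in naive libraries. At 2 h Kif15 had 2.99, 2.19, 2.61 and 2.72 RPKM, and at 24 h 20, 21.8, 23.5 and 21.3 RPKM. With no overlap between any of the groups, it had the largest log2 fold change of the kinesins at 24 h (log2 fold change 2.11, SE 0.08, adjusted p = 8.31e-09). Kif18a (chr2:109280738-109341747, plus strand), which dampens chromosome oscillations at the metaphase plate, had 0.433, 0.378, 0.401 and 0.425 RPKM in naive libraries. At 2 h Kif18a had 0.449, 0.245, 0.342 and 0.366 RPKM, and at 24 h 1.11, 1.37, 1.39 and 1.26 RPKM. It was low in naive and 2 h libraries, which overlapped (log2 fold change -0.06, SE 0.08, adjusted p = 0.577). Its 24 h libraries were all higher, 3.14-fold (log2 fold change 0.69, SE 0.08, adjusted p = 3.5e-05).

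Among the other kinesins, Kif20b, a motor of late cytokinesis, had the lowest level relative to naive at 2 h, 0.454 times (log2 fold change -0.85, SE 0.11, adjusted p = 2.09e-04), and averaged 4.23 ± 0.543 RPKM in naive libraries, 1.92 ± 0.496 RPKM at 2 h and 14.2 ± 0.885 RPKM at 24 h (SD, n = 4). Kif23, the motor subunit of centralspindlin, averaged 18.6 ± 1.5 RPKM in naive libraries, 12.1 ± 2.89 RPKM at 2 h and 56.9 ± 4.70 RPKM at 24 h (SD, n = 4), and Kif22, a chromosome arm motor, averaged 7.91 ± 0.812 RPKM in naive libraries, 4.47 ± 1.53 RPKM at 2 h and 31.4 ± 3.74 RPKM at 24 h (SD, n = 4). Both fell at 2 h and rose at 24 h. Kif20a, a midzone motor, rose 3.67-fold and Kif2c, a microtubule depolymerase of the centromere, 4.27-fold at 24 h, and both fell at 2 h. Kif4, a chromokinesin, rose 4.79-fold at 24 h, and its difference at 2 h did not pass (log2 fold change -0.16, SE 0.11, adjusted p = 0.27). Kif4 shares 832 exon bases with Pdzd11 and Kif20a shares 1271 with Cdc23, in each case on the opposite strand. In all, 10 members share exon bases with a protein-coding gene on the opposite strand. The others are Ncapg with Lcorl (944 bases), Prc1 with Rccd1 (911), Ube2c with Tnnc2 (592), Cenpk with Ppwd1 (233), Cdca8 with 9930104L06Rik (232), Nusap1 with Oip5 (172), Cdc20 with Elovl1 (53) and Kif18a with Mettl15 (11). Nek2 shares 298 with the antisense gene Gm38037. The strand setting of the counting is not given in the sources used here, so reads of all these pairs could be mixed. At 24 h Elovl1 averaged 19.5 RPKM, Ppwd1 10.3 RPKM, Pdzd11 7.03 RPKM, Oip5 6.99 RPKM and Cdc23 6.39 RPKM. The other protein-coding partners averaged at most 1.515 RPKM (Lcorl) at that time.

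All 8 centromere proteins rose at 24 h, and 4 fell at 2 h (Cenpe, Cenpf, Cenpk and Cenpn). Cenpa (chr5:30666777-30674830, plus strand), the histone H3 variant that marks the centromere, had 2.90, 2.46, 3.5 and 2.58 RPKM in naive libraries. At 2 h Cenpa had 2.23, 2.05, 2.27 and 2.49 RPKM, and at 24 h 9.86, 8.99, 9.07 and 7.05 RPKM. Its 24 h libraries were 3.06-fold higher without overlap (log2 fold change 1.33, SE 0.10, adjusted p = 1.02e-06). Its 2 h libraries overlapped naive by 1 library (log2 fold change -0.24, SE 0.10, adjusted p = 0.0887). Cenpe (chr3:135212537-135273611, plus strand), a kinesin of the outer kinetochore that gathers chromosomes at the metaphase plate, had 4.96, 3.66, 4.14 and 4.63 RPKM in naive libraries. At 2 h Cenpe had 2.5, 2.81, 2.85 and 3.83 RPKM, and at 24 h 18.9, 17, 18.3 and 15.1 RPKM. It rose 3.98-fold at 24 h (log2 fold change 1.78, SE 0.11, adjusted p = 1.79e-07) and fell at 2 h (log2 fold change -0.42, SE 0.11, adjusted p = 0.0101), although 2 h replicate 4 stood within the naive range. Cenph (chr13:100759674-100775899, minus strand), of the constitutive centromere network, had 2.23, 2.86, 1.79 and 2.11 RPKM in naive libraries. At 2 h Cenph had 0.954, 1.30, 1.68 and 2.28 RPKM, and at 24 h 10.1, 10.6, 10.6 and 11.3 RPKM. At 2 h, replicate 4 lay within the naive range and the other libraries lay below it. The difference did not pass (log2 fold change -0.36, SE 0.14, adjusted p = 0.0624). The 24 h libraries lay close together and gave the largest log2 fold change of the centromere proteins (log2 fold change 1.85, SE 0.14, adjusted p = 9.94e-07).

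Cenpi (chrX:134308084-134362639, plus strand), another subunit of that network, had 0.716, 0.87, 0.739 and 0.627 RPKM in naive libraries. At 2 h Cenpi had 0.646, 0.601, 0.376 and 0.646 RPKM, and at 24 h 3.06, 2.82, 2.96 and 3.11 RPKM. It stayed under 1 RPKM in every naive and 2 h library and was near 3 RPKM in every 24 h library, a 4.05-fold difference from naive with the smallest log2 fold change of this role (log2 fold change 1.2, SE 0.08, adjusted p = 2.95e-07). Cenpk, also of the network, had the lowest ratio of the module at 2 h, 0.444 (log2 fold change -0.54, SE 0.11, adjusted p = 0.00384), and a ratio of 4.94 at 24 h against naive. The 2 h ratio of Cenpk rests on few reads, 7 to 16 in a 2 h library and 18 to 26 in a naive library. Cenpf, a farnesylated outer kinetochore protein, averaged 1.67 ± 0.143 RPKM in naive libraries, 0.98 ± 0.215 RPKM at 2 h and 6.06 ± 0.606 RPKM at 24 h (SD, n = 4). Cenpn, which reads CENP-A nucleosomes, rose 4.11-fold and Cenpw, a histone-fold subunit, 4.81-fold at 24 h; Cenpw did not pass at 2 h (log2 fold change -0.15, SE 0.13, adjusted p = 0.382).

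The NDC80 complex is the main microtubule holder of the kinetochore, and all 4 of its subunits fell at 2 h and rose at 24 h. The 2 h calls of Spc24 and Spc25 were each kept under 15 of 23 other settings, with adjusted p up to 0.0822 for Spc24 and 0.0692 for Spc25. Ndc80 (chr17:71496100-71526857, minus strand), the subunit that touches the microtubule, had 5.48, 6.25, 7.22 and 6.39 RPKM in naive libraries. At 2 h Ndc80 had 3.36, 2.06, 3.91 and 4.39 RPKM, and at 24 h 23.4, 23.2, 25.3 and 23.5 RPKM. Each 2 h library was under each naive library (log2 fold change -0.75, SE 0.14, adjusted p = 0.00204). The 24 h libraries lay close together, 3.77-fold above naive (log2 fold change 1.77, SE 0.14, adjusted p = 1.7e-06). Spc24 (chr9:21755442-21760303, minus strand), at the inner end of the complex, had 4.97, 4.11, 4.16 and 4.12 RPKM in naive libraries. At 2 h Spc24 had 2.88, 3.44, 3.97 and 2.05 RPKM, and at 24 h 23.3, 26.1, 22.4 and 20.4 RPKM. The 2 h values were all below naive, lowest in replicate 4 (log2 fold change -0.41, SE 0.13, adjusted p = 0.0299). The rise at 24 h was 5.31-fold (log2 fold change 2.17, SE 0.13, adjusted p = 1.65e-07). Nuf2, the partner of Ndc80, averaged 1.56 ± 0.14 RPKM in naive libraries, 1.12 ± 0.2 RPKM at 2 h and 7.95 ± 0.271 RPKM at 24 h, and Spc25, the partner of Spc24, averaged 1.27 ± 0.164 RPKM in naive libraries, 0.909 ± 0.15 RPKM at 2 h and 6.83 ± 0.522 RPKM at 24 h (SD, n = 4). Against naive, the ratios of the subunits at 24 h ranged from 3.77 to 5.37 and at 2 h from 0.542 to 0.718.

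The 3 spindle assembly genes all fell at 2 h and rose at 24 h. Nusap1 (chr2:119618298-119651244, plus strand), which bundles spindle microtubules near chromosomes, had 3.97, 3.31, 3.69 and 3.34 RPKM in naive libraries. At 2 h Nusap1 had 2.35, 2.40, 2.80 and 2.68 RPKM, and at 24 h 17.2, 18.4, 19.7 and 16.2 RPKM. The groups were apart and the ratio to naive was 5 at 24 h (log2 fold change 2.04, SE 0.07, adjusted p = 8.31e-09) and 0.716 at 2 h (log2 fold change -0.36, SE 0.07, adjusted p = 0.00273). Tpx2 (chr2:152847964-152895321, plus strand), the activator of Aurora A, had 2.49, 2.25, 2.46 and 1.93 RPKM in naive libraries. At 2 h Tpx2 had 1.37, 1.70, 2.02 and 1.91 RPKM, and at 24 h 10.1, 9.84, 9.94 and 8.36 RPKM. It was 4.19-fold higher at 24 h without overlap (log2 fold change 1.68, SE 0.09, adjusted p = 6.79e-08). At 2 h it passed narrowly with overlapping groups (log2 fold change -0.26, SE 0.09, adjusted p = 0.0416), a call kept under 10 of 23 other settings. Prc1 (chr7:80294450-80316259, plus strand), which crosslinks the antiparallel microtubules of the midzone, had 1.72, 1.5, 1.69 and 1.37 RPKM in naive libraries. At 2 h Prc1 had 1.01, 0.833, 1.11 and 1.35 RPKM, and at 24 h 7.07, 6.91, 7.39 and 6.42 RPKM. Its log2 fold change at 24 h was the smallest of these genes, with a ratio to naive of 4.42 (log2 fold change 1.63, SE 0.08, adjusted p = 4.28e-08). It lay below naive in all 2 h libraries (log2 fold change -0.31, SE 0.08, adjusted p = 0.0101).

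The 5 cytokinesis genes rose at 24 h, and Anln, Ect2 and Racgap1 fell at 2 h. Shcbp1 (chr8:4735976-4779567, minus strand), a midbody protein that binds the centralspindlin subunit encoded by Racgap1, had 4.85, 3.90, 4.58 and 3.07 RPKM in naive libraries. At 2 h Shcbp1 had 2.78, 2.22, 3.49 and 3.69 RPKM, and at 24 h 27.2, 27.4, 27.3 and 24.0 RPKM. Its ratio at 24 h over naive, 6.46, was the largest of the module (log2 fold change 2.44, SE 0.13, adjusted p = 7.23e-08). At 2 h its values overlapped naive (log2 fold change -0.34, SE 0.13, adjusted p = 0.0649). Ect2 (chr3:27097222-27153878, minus strand), the exchange factor that activates RhoA for the contractile ring, had 0.901, 1.05, 1.01 and 0.969 RPKM in naive libraries. At 2 h Ect2 had 0.483, 0.383, 0.395 and 0.716 RPKM, and at 24 h 3.18, 3.12, 3.48 and 2.83 RPKM. All 2 h libraries were below and all 24 h libraries above naive, with ratios of 0.503 (log2 fold change -0.41, SE 0.08, adjusted p = 0.00275) and 3.21 (log2 fold change 1.06, SE 0.08, adjusted p = 1.21e-06). Anln, which encodes the ring scaffold anillin, averaged 16.1 ± 1.09 RPKM in naive libraries, 9.07 ± 1.45 RPKM at 2 h and 40.7 ± 1.94 RPKM at 24 h (SD, n = 4). It was 0.563 times naive at 2 h, with the smallest adjusted p of the module in that comparison (log2 fold change -0.77, SE 0.09, adjusted p = 9.86e-05), and 2.53 times naive at 24 h. Racgap1 rose 4.20-fold and Cep55, which recruits the abscission machinery, 3.93-fold at 24 h.

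All 7 condensin and chromosome structure genes fell at 2 h and rose at 24 h. Top2a (chr11:98992943-99024189, minus strand), the topoisomerase that untangles sister DNA, had 11.9, 11.3, 11.8 and 10.5 RPKM in naive libraries. At 2 h Top2a had 6.47, 6.36, 7.33 and 9.61 RPKM, and at 24 h 55.6, 58.0, 59.7 and 51.5 RPKM. The 3 groups did not overlap, and the ratio to naive was 4.95 at 24 h (log2 fold change 2.21, SE 0.10, adjusted p = 3.65e-08) and 0.655 at 2 h (log2 fold change -0.56, SE 0.10, adjusted p = 0.00159). Mki67 (chr7:135689784-135716361, minus strand), which encodes the Ki-67 protein of the chromosome surface, widely used to stain cycling cells, had 23.4, 21.0, 23.1 and 18.8 RPKM in naive libraries. At 2 h Mki67 had 12.8, 12.2, 15.3 and 17.6 RPKM, and at 24 h 99.9, 105, 98.8 and 88.7 RPKM. It followed the same order, 4.55 times naive at 24 h (log2 fold change 2.14, SE 0.11, adjusted p = 4.77e-08) and 0.671 times at 2 h (log2 fold change -0.55, SE 0.11, adjusted p = 0.00232). Again 2 h replicate 4 was the highest of its group. Smc2 (chr4:52439243-52488260, plus strand), an ATPase of condensin, had 4.19, 3.59, 4.64 and 4.27 RPKM in naive libraries. At 2 h Smc2 had 2.77, 2.5, 3.01 and 3.65 RPKM, and at 24 h 15.1, 16.8, 17.1 and 16.5 RPKM. Its rise at 24 h was 3.92-fold (log2 fold change 1.75, SE 0.09, adjusted p = 4.77e-08). At 2 h it fell (log2 fold change -0.38, SE 0.09, adjusted p = 0.00615) with replicate 4 inside the naive range.

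Smc4 (chr3:69004738-69034623, plus strand), the partner ATPase, had 9.96, 10.3, 10.6 and 10.3 RPKM in naive libraries. At 2 h Smc4 had 6.5, 5.99, 6.79 and 9.62 RPKM, and at 24 h 21.5, 21.5, 22.3 and 22.3 RPKM. Although its naive libraries and its 24 h libraries were each tightly grouped, its rise, 2.13-fold, was the smallest of this role (log2 fold change 1.02, SE 0.10, adjusted p = 1e-05). Ncapd2 (chr6:125168007-125191701, minus strand), a HEAT-repeat subunit of condensin I, had 5.86, 4.90, 5.16 and 4.48 RPKM in naive libraries. At 2 h Ncapd2 had 2.90, 2.48, 2.94 and 3.61 RPKM, and at 24 h 21.6, 21.2, 23.1 and 18.7 RPKM. All 3 groups were separate, with ratios to naive of 4.14 at 24 h (log2 fold change 1.86, SE 0.10, adjusted p = 5.05e-08) and 0.585 at 2 h (log2 fold change -0.62, SE 0.10, adjusted p = 5.68e-04). Ncapg, the second HEAT-repeat subunit, rose 4.72-fold, and Ncaph, the kleisin that closes the ring, 4.78-fold at 24 h. The fall of Ncaph at 2 h was next to the threshold (log2 fold change -0.28, SE 0.10, adjusted p = 0.0496) and was kept under 8 of 23 other settings. Without naive replicate 3 the 2 h call of Ncapg was lost (adjusted p = 0.052).

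The CKS proteins bind cyclin-dependent kinases and help them dock on substrates. Cks1b (chr3:89415472-89418383, minus strand) had 10.9, 8.82, 9.88 and 10.3 RPKM in naive libraries. At 2 h Cks1b had 7.98, 7.93, 11.4 and 8.25 RPKM, and at 24 h 33.8, 32.0, 27.2 and 27.0 RPKM. It rose 3.01-fold at 24 h (log2 fold change 1.5, SE 0.11, adjusted p = 9.48e-07). At 2 h its values overlapped naive, replicate 3 being the highest of the 8 libraries (log2 fold change -0.16, SE 0.11, adjusted p = 0.292). Cks2 (chr13:51645232-51650660, plus strand) had 38.4, 29.9, 33.6 and 39.0 RPKM in naive libraries. At 2 h Cks2 had 35.1, 25.4, 25.1 and 37.7 RPKM, and at 24 h 74.8, 68.3, 65.5 and 55.9 RPKM. It had the smallest ratio among the members that rose, 1.88 at 24 h (log2 fold change 0.89, SE 0.14, adjusted p = 3.49e-04), and overlapped naive at 2 h (log2 fold change -0.20, SE 0.14, adjusted p = 0.29). Intronless copies of Cks2, Gm12891 and Gm15452, are 98.3% and 100% identical over 240 bases and averaged 0 RPKM in every group. The level of Cks2 is uncertain to the extent that reads match more than 1 place.

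**Figure D4:**
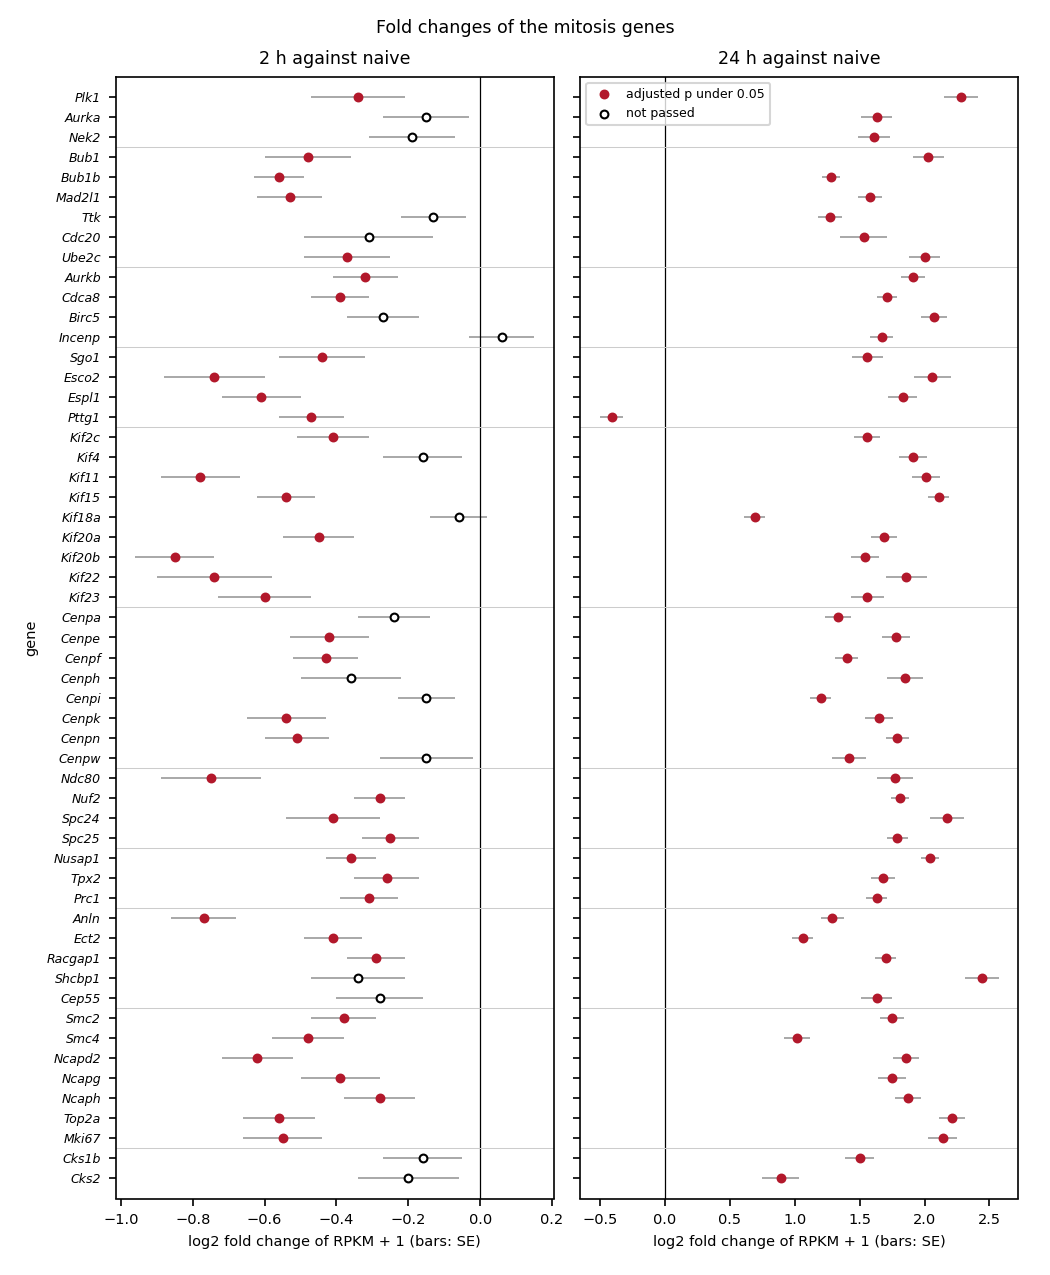
Log2 fold change of RPKM + 1 (points) with SE (bars) of each of the 55 genes at 2 h and at 24 h, both against naive; filled points passed at an adjusted p under 0.05 and open points did not. At 2 h, 39 points are filled and all of these are negative, and at 24 h all 55 are filled, with Pttg1 at -0.41 the 1 negative value.

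The rest of the mitotic machinery, from lists that do not hold the 55 members, followed in part. Of 24 other kinetochore genes tested, 22 rose and 1 fell at 24 h against naive (median log2 fold change 1.22), and 1 rose and 14 fell at 2 h. Cenpm, of the centromere network, averaged 1.13 ± 0.261 RPKM in naive libraries, 0.769 ± 0.308 RPKM at 2 h and 7.87 ± 1.02 RPKM at 24 h, and Ska3, of the SKA complex that couples kinetochores to microtubules, averaged 2.49 ± 0.195 RPKM in naive libraries, 1.40 ± 0.423 RPKM at 2 h and 10.9 ± 1.44 RPKM at 24 h (SD, n = 4). Cenpo fell at 24 h (log2 fold change -0.23, adjusted p = 0.0324). Hjurp, the chaperone of CENP-A, did not pass there (log2 fold change 0.02, adjusted p = 0.924). At 2 h Hjurp fell (log2 fold change -1.32, SE 0.11, adjusted p = 1.05e-05), with means of 17.9 RPKM in naive libraries, 6.65 RPKM at 2 h and 18.1 RPKM at 24 h. These 2 were named after their values were seen. All 10 genes of a list of other checkpoint genes and regulators of mitosis rose at 24 h and 5 fell at 2 h. At 24 h Kntc1, of the ROD-ZW10 complex, rose 5.66-fold and Fbxo5, the inhibitor Emi1, 4.76-fold. All 22 other spindle and cytokinesis genes rose at 24 h and 11 fell at 2 h, among them Gtse1 (5.73-fold at 24 h), a microtubule-binding protein of G2 and mitosis, and Pbk (5.52-fold), a mitotic kinase.

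All 10 genes of mitotic entry rose at 24 h and 3 fell at 2 h, a share of 30% next to the 22.0% of all genes tested that fell. Cdk1, the kinase that starts mitosis, averaged 2.93 ± 0.453 RPKM in naive libraries, 2.44 ± 0.341 RPKM at 2 h and 15.5 ± 0.891 RPKM at 24 h, and Ccnb2, a B-type cyclin, averaged 15.7 ± 3.01 RPKM in naive libraries, 11.7 ± 1.44 RPKM at 2 h and 67.1 ± 11.7 RPKM at 24 h (SD, n = 4). The 3 genes of condensin II rose at 24 h, Ncapg2 4.09-fold and Ncapd3 2.33-fold, and 2 of 3 fell at 2 h. Of 30 DNA replication genes, which act before mitosis, all 30 rose at 24 h (median log2 fold change 1.51) and 22 fell at 2 h. Rrm2, of ribonucleotide reductase, and Mcm5, of the replicative helicase, had the largest log2 fold changes at 24 h, 2.48 and 2.31.

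Smaller values stood in the core of the APC/C and in cohesin. The list of 16 APC/C core genes includes the enzyme Ube2s and the activator Fzr1 beside the subunits. Of the 16, 11 rose at 24 h and 5 did not pass, with a median log2 fold change of 0.31 and a range of -0.12 to 1.14. At 2 h, 1 rose and 3 fell, a share of 18.8% lower where 22.0% of all genes tested fell. The members Cdc20 and Ube2c, also an activator and an enzyme of the APC/C, had log2 fold changes of 1.53 and 2.00 at 24 h. The largest log2 fold changes of this list at 24 h were those of Ube2s, the chain-elongating enzyme, and of the subunit gene Cdc23. Ube2s averaged 60.8 ± 2.78 RPKM in naive libraries, 63.7 ± 5.59 RPKM at 2 h and 137 ± 25.9 RPKM at 24 h (SD, n = 4). Cdc23 averaged 3.13 ± 0.139 RPKM in naive libraries, 2.23 ± 0.28 RPKM at 2 h and 6.39 ± 0.471 RPKM at 24 h (SD, n = 4). Of 12 genes of cohesin and its regulators, 7 rose and 2 fell at 24 h (median 0.39). These shares were 58.3% and 16.7%, where 25.3% of all genes tested rose and 20.6% fell. At 2 h, 1 rose and 8 fell, 8.33% and 66.7%, where 14.7% of all genes tested rose and 22.0% fell. Cdca5, which encodes sororin, the protector of cohesin in mitosis, averaged 1.65 ± 0.122 RPKM in naive libraries, 1.21 ± 0.32 RPKM at 2 h and 7.22 ± 0.822 RPKM at 24 h, and Rad21, the cohesin subunit that separase cuts, averaged 42.2 ± 0.838 RPKM in naive libraries, 34.2 ± 4.22 RPKM at 2 h and 79.3 ± 4.72 RPKM at 24 h (SD, n = 4). The loader subunit Mau2 and the acetyltransferase Esco1, the relative of Esco2, were the 2 that fell, and are named after their values were seen. Their log2 fold changes at 24 h were -0.43 for Mau2 (adjusted p = 9e-05) and -0.35 for Esco1 (adjusted p = 0.00127). The difference between these lists and the members was not tested.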

How the data were processed

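RPKM (reads per kilobase of transcript per 1000000 reads) per Ensembl gene were deposited by the authors, in 1 column for each of the 12 libraries. The submitters' processing notes name bcl2fastq, TopHat2, HTSeq and the mm10 build. Versions, the gene-length rule and the strand setting are not given there. Per the labels' protocols, polyadenylated RNA was isolated with the PicoPure kit. GENCODE vM21, on the assembly of mm10, named 98.0% of the 43430 genes. Lengths implied by the values differ from annotated exon lengths for many genes, so levels are not compared between genes.

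RPKM are not counts, so log2(RPKM + 1) was tested with limma 3.58.1 in R 4.3.3 over all 12 libraries, two-sided and with a variance trend. The fit held the 11419 genes with at least 1 RPKM in at least 4 libraries. In each of the 3 comparisons, Benjamini-Hochberg adjustment ran over all these genes, and an adjusted p under 0.05 passed. Log2 values with 1 added understate changes of low genes, and ratios are of mean RPKM. The steps between RPKM values gave the library totals, and whole reads within 0.02 for 99.8% of the genes tested. On these reads limma voom was run as an alternative. For a transcript of 1 kilobase, 3 reads correspond to 0.250 to 0.491 RPKM, which covers counting error only. Copies were searched with BLAST 2.17.0 (at least 90% identity over 200 bases and 25% of the transcript). Other alternatives were pseudocounts of 0.1 and 0.5, other filters and scalings, a fit without the variance trend or with the compared groups only, a block for the replicate number, and each library left out in turn.

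The members, gene lists and tests were chosen with earlier results of these data known. Values per library are given for 19 members picked by role and for those with the largest and smallest log2 fold change at 24 h against naive in each role. Of the other lists, the 2 genes with the largest absolute change at 24 h are named, and of the markers the most abundant ones. Promoter letters are from RefSeq.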

Additional observations from a re-analysis of the deposited data

Results flagged for a closer look

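In 13 of the 165 groups of 4 libraries (55 members in 3 groups), 1 library stood far from the other 3, by a gap above the 95% critical value of Dixon's ratio. Chance alone flags about 1 in 20 groups. Of these, 4 were high values of 2 h replicate 4: Kif11 at 5.47 RPKM (others 3.65 to 3.77), Kif22 at 6.76 RPKM (others 3.49 to 3.95), Ncaph at 2.23 RPKM (others 1.60 to 1.67) and Sgo1 at 1.44 RPKM (others 0.747 to 0.856). Low values of 24 h replicate 4 made up 3: Shcbp1 at 24.0 RPKM (others 27.2 to 27.4), Kif20b at 12.9 RPKM (others 14.5 to 14.8) and Tpx2 at 8.36 RPKM (others 9.84 to 10.1). Naive replicate 1 was high for Esco2 at 2.95 RPKM (others 2.51 to 2.58) and Spc24 at 4.97 RPKM (others 4.11 to 4.16), and naive replicate 2 was low for Cep55 at 1.74 RPKM (others 2.56 to 2.69). At 2 h, replicate 3 was high for Cks1b at 11.4 RPKM (others 7.93 to 8.25) and low for Cenpi at 0.376 RPKM (others 0.601 to 0.646). At 24 h, replicate 3 was high for Ndc80 at 25.3 RPKM (others 23.2 to 23.5). Their causes were not tested.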

How the results depend on the processing

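Under all 23 alternatives, each member that could be tested kept its call and direction at 24 h against naive and against 2 h; the filter of 5 RPKM left 47 members, all 47 higher at 24 h, and 0 lower because Pttg1 was not tested. At 2 h against naive, 31 members fell under every alternative that tested them, and 8 lost the call under at least 1 (Aurkb, Ncapg, Ncaph, Plk1, Spc24, Spc25, Tpx2 and Ube2c). Another 7 that had not passed did so under at least 1 (Birc5, Cenpa, Cenph, Cep55, Cks1b, Shcbp1 and Ttk), and 9 never passed. The count of members that fell was 32 to 42 with 1 library left out, lowest without naive replicate 1, and 33 to 40 under the others; the log2 fold change of Incenp at 2 h ran from -0.01 (without naive replicate 4) to 0.12. The member median moved with the scale: at 2 h against naive to -0.53 (pseudocount 0.1) and -0.57 (voom), at 24 h against naive to 2.03 (pseudocount 0.1), 1.86 (pseudocount 0.5) and 2.06 (voom), and at 24 h against 2 h to 2.61, 2.33 and 2.72 in the same order. With fewer genes tested, the filter of 5 RPKM gave 1544 genes lower at 2 h against naive, and 2307 higher and 1616 lower at 24 h against 2 h. Median-ratio scaling gave 2062 genes higher and 2043 lower at 2 h against naive, where the values as deposited gave 1675 and 2514.

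Replicate numbers did not pair the libraries: deviations of same-numbered libraries from their group means correlated between -0.04 and 0.05. With the replicate block, 54 members rose and 1 fell at 24 h against naive, 54 rose at 24 h against 2 h, and 36 fell at 2 h against naive. Depth limits the low members, which had as few as 6 reads in a library.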
